A study of Mus musculus with 6 samples.

Results

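The genes described here encode the nuclear subunits of the mitochondrial respiratory chain and of ATP synthase. They were chosen by name: every probe set (the group of short probes that together read 1 transcript) with a single gene symbol beginning with Ndufa, Ndufb, Ndufc, Ndufs, Ndufv, Uqcr or Atp5, or with Sdh followed by a letter from a to d, or named Cyc1 or as a subunit from Cox4i to Cox8; assembly factors were left out. This gave 170 of the 45101 probe sets on the array and 83 of the 18193 genes with a probe set of their own. Complex I had 78 probe sets of 36 genes, complex II 9 of 4, complex III 17 of 9, complex IV 35 of 17 and complex V, the ATP synthase, 31 of 17. A gene was assigned to a complex by its symbol. Thus Ndufa4, which is now placed in complex IV, and the similarly named Ndufa4l2 were counted with complex I. Cox7a2l, which joins complexes together, was counted with complex IV.

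Total RNA from mouse brain at 1 month of age was hybridised to 6 one-colour Affymetrix arrays. The Dap12-ko group had 3 arrays, named 67, 68 and Ko1, and the Dap12-het group had 3, named 75, 76 and 81. Dap12 is the adaptor protein encoded by Tyrobp, through which receptors such as Trem2 signal in microglia, and the heterozygous mice that served as controls kept 1 working copy of it; no wild-type mice were among the samples. The design text names midbrain, with diencephalon and basal ganglia in brackets, as the tissue, and the sample labels say only brain. The allele, the strain, and whether each array came from its own animal are not given in the sources used here, so the spread behind each p-value is that between these samples and may be technical.

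As background, the respiratory chain sits in the inner mitochondrial membrane and passes electrons from NADH and succinate to oxygen. Complex I (NADH dehydrogenase) and complex II (succinate dehydrogenase) feed electrons into ubiquinone, complex III hands them to cytochrome c, and complex IV (cytochrome c oxidase) transfers them to oxygen. Complexes I, III and IV pump protons, and complex V uses the returning protons to make ATP. Neurons depend on this supply for ion pumping and synaptic transmission. Some subunits of complexes I, III, IV and V are encoded by mitochondrial DNA, and those transcripts were not analysed here.

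The 2 groups of arrays differed in ways that touch every result below. The deposited trimmed mean was 100 on all 6 arrays, but the highest signal was 16673 to 46271 on the knockout arrays and 7417 to 7790 on the heterozygous arrays. The bacterial and phage control transcripts (bioB, bioC, bioD and cre), which carry no mouse RNA, had a median signal of 3102, 1578 and 1369 on knockout 67, 68 and Ko1 against 356 to 376 on the heterozygous arrays, and all 18 of their probe sets were higher on each knockout array than on any heterozygous array. The ratio of the actin control probe sets at the 3' and 5' ends was 1.76 to 2.33 on the knockout and 1.59 to 2.12 on the heterozygous arrays. The targeted gene matched the labels: Tyrobp gave signals of 2.28, 23.7 and 12.9 on the knockout arrays and 70.7, 68.2 and 77.6 on the heterozygous arrays, and fell by 1.68 in log2 terms (limma adjusted p = 0.0439). Whether the probes sit inside the deleted part was not examined.

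Most subunits did not pass the test, and the 3 probe sets that did were higher in the knockout. Signals were compared as log2(signal + 16), which understates the change of dim probe sets, and the brighter 50% of probe sets, by mean level, were tested; 144 of the 170 subunit probe sets, from 79 genes, were tested. At an adjusted p under 0.05 (limma, Benjamini-Hochberg over all 22518 probe sets tested), 3 subunit probe sets rose, those of Cox6a1, Ndufb11 and Ndufs4, and 0 fell, which is 2.08% of the subunits beside 1.98% of all probe sets tested (1.24% higher and 0.733% lower). The subunits' count therefore lay near the background. At an unadjusted p under 0.05, 36 subunit probe sets (25%) passed, 30 of them higher and 6 lower, beside 20.9% of all probe sets. In whole tissue, a change in the number of cells of a type and a change in RNA per cell cannot be told apart.

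The complexes differed in where their probe sets lay. The median log2 change was -0.03 over the 68 tested probe sets of complex I, 0.04 over 8 of complex II, 0.11 over 14 of complex III, 0.27 over 26 of complex IV and 0.21 over 28 of complex V, beside 0.10 over all subunits and 0.00 over all probe sets tested. With each array centred on its own median, which moved the median of all probe sets to -0.40, these medians became -0.43, -0.36, -0.30, -0.13 and -0.19, so the signs for complexes II to V flipped, while every complex except complex I lay above the median of all probe sets. With quantile normalization the medians of complexes I to V were -0.05, -0.02, 0.12, 0.07 and 0.04, beside -0.06 over all probe sets. Complex III, not complex IV, then had the highest median. No test of one complex against another was made.

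**Figure D1:**
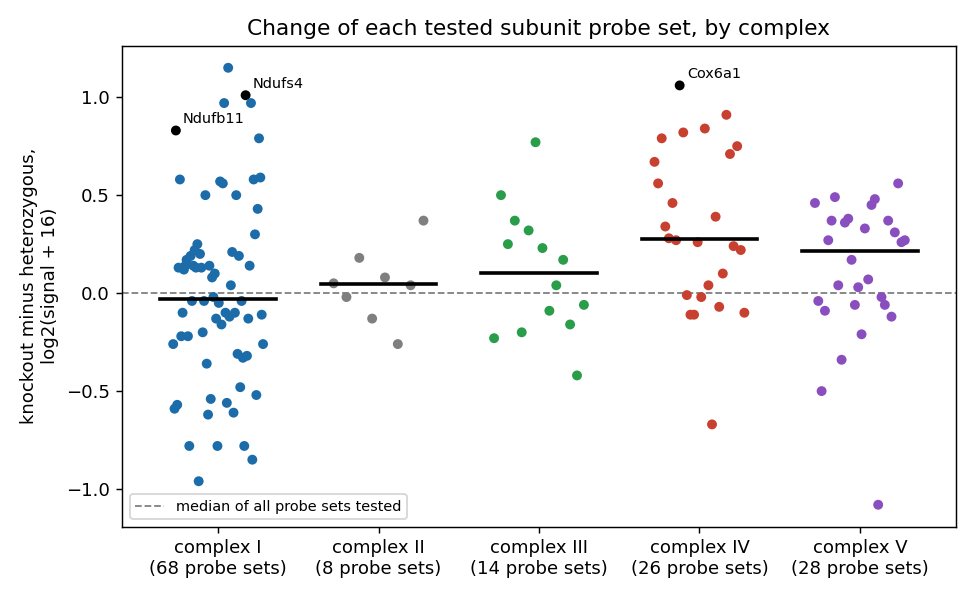
Log2 change (knockout minus heterozygous, log2(signal + 16)) of the 144 tested subunit probe sets, grouped by complex; each point is 1 probe set, each bar the median of its complex, the dashed line the median of all probe sets tested, and the black points are the 3 probe sets that passed the test. Complex I spreads from -0.96 to 1.15 around a median of -0.03, the 1.15 coming from a dim probe set of Ndufa4l2 (heterozygous mean of 20). The medians of complexes IV and V are 0.27 and 0.21 with the deposited scaling and -0.13 and -0.19 with arrays centred on their medians.

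With the deposited scaling, complexes IV and V also had the highest shares in a count that does not rest on the model. All 3 knockout arrays lay above all 3 heterozygous arrays for 43 of the 144 subunit probe sets (29.9%, beside 14.9% of all probe sets tested) and below them for 4 (2.78%, beside 12.5%). By complex, the share above was 22.1% in complex I (15 probe sets), 21.4% in complex III (3), 57.7% in complex IV (15) and 35.7% in complex V (10), and no probe set of complex II was separated in either direction. The 4 that lay below were all in complex I: 1 probe set of Ndufb11, 1 of Ndufc1 and 2 of Ndufv1. These shares depended on the scaling. After quantile normalization 25 subunit probe sets lay above (17.4%, beside 11.9% of all) and 14 below (9.72%, beside 13.3%). With arrays centred on their medians 8 lay above (5.56%, beside 5.23%) and 25 below (17.4%, beside 30.4%). By complex, the share above was then 17.6% and 4.41% in complex I, 21.4% and 0% in complex III, 23.1% and 19.2% in complex IV and 14.3% and 0% in complex V.

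Complex I contributed 2 of the 3 probe sets that rose. Ndufb11, an accessory subunit of the membrane arm, had signals of 3080, 3114 and 2544 on knockout 67, 68 and Ko1 against 1619, 1552 and 1713 on heterozygous 75, 76 and 81 for probe set 1416056_a_at. All knockout arrays were above all heterozygous arrays, with means of 2913 ± 320 and 1628 ± 80.6 (SD, n = 3), and the probe set rose by 0.83 ± 0.16 (SE, log2 scale; limma adjusted p = 0.04). Ndufs4, an accessory subunit of the matrix arm whose loss in mice gives a Leigh-like brain disease, had signals of 1106, 1121 and 794 on the knockout arrays and of 565, 486 and 422 on the heterozygous arrays for probe set 1448959_at. It rose by 1.01 ± 0.21 (SE; limma adjusted p = 0.0496), with arrays 67 and 68 higher than Ko1. The remaining tested probe sets of Ndufs4 were dim, with heterozygous means of 77.6 and 89.6, and gave 0.22 and -0.10.

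Around the catalytic site of the matrix arm, the subunits lay on both sides of 0. Ndufv1, which holds the FMN that accepts electrons from NADH, gave signals of 827, 812 and 1129 on the knockout and 1469, 1314 and 1362 on the heterozygous arrays for probe set 1415967_at, a change of -0.59 ± 0.18 that did not pass (adjusted p = 0.123), and its other probe sets gave -0.26 and -0.11. Ndufs1, the largest iron-sulphur subunit, gave 990, 1073 and 814 against 923, 819 and 847, and its groups overlapped (0.14 ± 0.17, adjusted p = 0.679). Ndufv2, an iron-sulphur subunit next to Ndufv1, gave 2797, 2529 and 1611 against 1169, 1161 and 1105 for probe set 1452692_a_at, with all knockout arrays higher, and the change of 0.97 ± 0.22 lay just outside the threshold (adjusted p = 0.0626). Its brightest probe set, 1428179_at, gave 1831, 2236 and 2083 against 2230, 2121 and 1874, with overlapping groups (-0.02 ± 0.16, limma adjusted p = 0.963). The brightest probe set of complex I, of Ndufa13, an accessory subunit also known as GRIM-19, overlapped between the groups (3317, 3163 and 4361 against 3538, 3412 and 4193; -0.05 ± 0.18).

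Probe sets of the same complex I gene often gave different answers. Ndufb11 probe set 1416057_at had signals of 1123, 1082 and 1643 on the knockout and 1809, 1924 and 1905 on the heterozygous arrays, a change of -0.57 ± 0.19 (limma adjusted p = 0.148), against 0.83 and 0.59 for the other probe sets of the gene. Ndufv2 ranged from -0.61 to 0.97 over 3 probe sets, and Ndufs8, which carries iron-sulphur clusters near the quinone site, from -0.56 to 0.97 over 6, the 0.97 coming from a dim probe set (43.8, 58.3 and 73.9 against 32.2, 22.6 and 12.8). These 3 genes were the only ones among the 42 subunit genes with several tested probe sets (7.14%) whose probe sets moved by at least 0.5 in opposite directions; over all genes with several tested probe sets the share was 9.23%. Signs differed within 24 of the 42 genes (57.1%, beside 61.5% over all genes), and the median range within a gene was 0.45 on the log2 scale beside 0.67. The direction for Ndufb11, Ndufv2 or Ndufs8 as a gene is therefore not settled by these arrays.

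**Figure D2:**
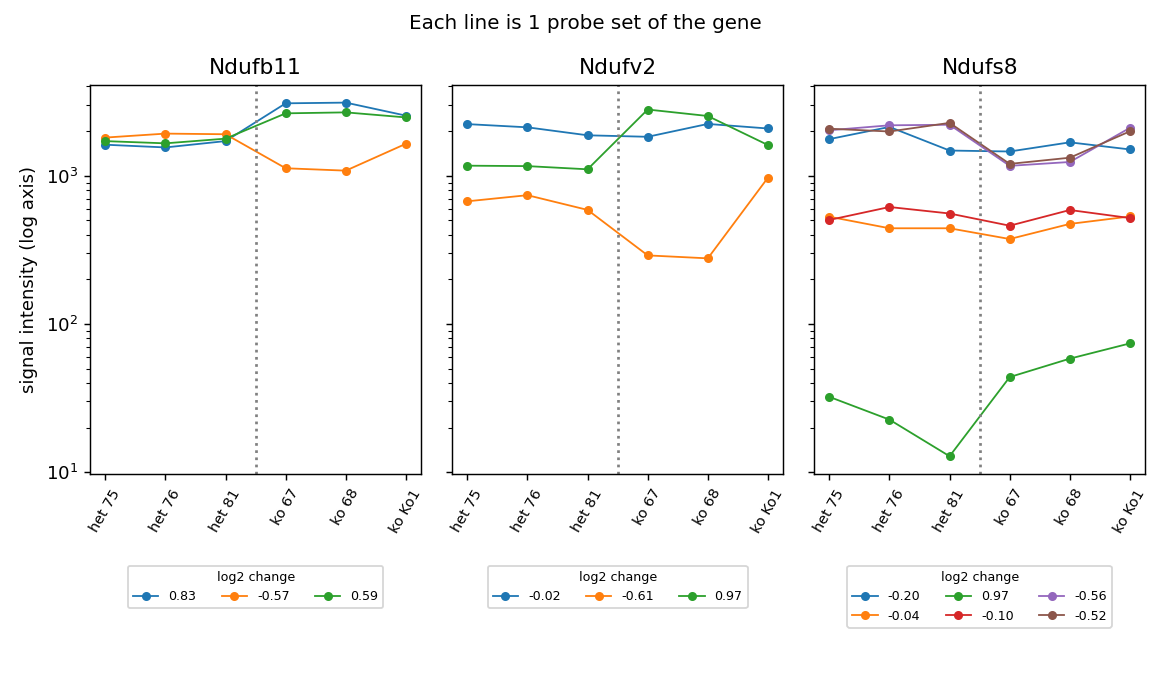
Signal on each of the 6 arrays (log axis) for the tested probe sets of Ndufb11, Ndufv2 and Ndufs8; each line is 1 probe set, labelled with its log2 change, and the dotted line separates the heterozygous from the knockout arrays. Within each gene some lines go up and others down: Ndufb11 gives 0.83, 0.59 and -0.57.

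Complex II, whose 4 subunits are all encoded in the nucleus and which also works in the Krebs cycle, had no probe set that passed, also at an unadjusted p under 0.05. Over all probe sets tested the shares were 1.98% and 20.9%, so with 8 probe sets this says little. Sdha, the flavoprotein that oxidises succinate, gave 1359, 1497 and 1729 on the knockout and 1676, 1653 and 1337 on the heterozygous arrays (-0.02 ± 0.17, limma adjusted p = 0.952), and its other tested probe sets gave 0.18 and 0.08. Sdhb, the iron-sulphur subunit, gave 1378, 1581 and 1781 against 1647, 1418 and 1502 (0.05 ± 0.17, adjusted p = 0.898). The groups overlapped for every one of the 8 probe sets. Over all probe sets tested, 14.9% had all knockout arrays above all heterozygous arrays and 12.5% had them below. Sdhc, a membrane anchor, varied most between arrays, with 566, 1417 and 620 against 990, 449 and 510 (0.37 ± 0.40, adjusted p = 0.633).

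In complex III the electron-carrying subunits were at or above the heterozygous level, and none passed. Cyc1, cytochrome c1, gave 2105, 2439 and 2115 on the knockout and 1560, 1508 and 1615 on the heterozygous arrays, with no overlap (0.50 ± 0.15, limma adjusted p = 0.114). Uqcrfs1, the Rieske iron-sulphur protein, gave 1381, 1547 and 1417 against 1378, 1197 and 1286 (0.17 ± 0.15, adjusted p = 0.569), so its groups were separated by a small margin. The core proteins differed in sign: Uqcrc2 gave 0.37 ± 0.19 (adjusted p = 0.296) and -0.09 in its 2 probe sets, and Uqcrc1 gave -0.20 ± 0.16 (1437, 1324 and 1140 against 1525, 1513 and 1420; adjusted p = 0.522). Uqcrb, which helps to form the ubiquinone site, had the brightest probe set of the complex, and its knockout arrays lay on both sides of the heterozygous ones (4507, 4483 and 8233 against 5850, 5720 and 5683; -0.06 ± 0.23, adjusted p = 0.903).

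Complex IV had the largest share of probe sets above the heterozygous arrays with the deposited scaling. Of its 26 tested probe sets, 12 had an unadjusted p under 0.05 (46.2%, beside 20.9% of all probe sets) and all 12 were higher in the knockout. In addition, 15 had all knockout arrays above all heterozygous arrays (57.7%, beside 14.9%). This count was 6 after quantile normalization and 5 with arrays centred on their medians. Cox6a1, the widely expressed form of a regulatory subunit, gave 11854, 10060 and 7568 on knockout 67, 68 and Ko1 against 4404, 4639 and 4857 on heterozygous 75, 76 and 81 for probe set 1417417_a_at. Its lowest knockout array was well above its highest heterozygous array, the means were 9827 ± 2153 and 4634 ± 227 (SD, n = 3), and it rose by 1.06 ± 0.18 (SE; limma adjusted p = 0.0351), the only complex IV probe set to pass. The second probe set of the gene gave 5167, 5487 and 2720 against 2610, 2276 and 2335 (0.82 ± 0.26, adjusted p = 0.129).

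Several other complex IV subunits had a probe set with all knockout arrays above all heterozygous arrays that did not pass. Cox4i1, the ubiquitous form of a subunit that takes part in the response of the enzyme to ATP, gave 7328, 7224 and 5809 against 4084, 4044 and 4272 (0.71 ± 0.15, limma adjusted p = 0.0529). For Cox5a the probe sets differed: 1415933_a_at gave 4067, 4235 and 3495 against 2567, 2541 and 2255 (0.67 ± 0.15, adjusted p = 0.061), and the others gave 0.10 and -0.07 with overlapping groups. Cox8a, the ubiquitous form of the smallest subunit, gave 3284, 3854 and 2196 against 2037, 1557 and 1690 (0.79 ± 0.23, adjusted p = 0.106) and, in its second tested probe set, 3480, 3606 and 2144 against 1799, 1389 and 1600 (0.91 ± 0.23, adjusted p = 0.0768). On arrays 67 and 68 both probe sets were higher than on Ko1. Cox7a2, the widely expressed form of another small subunit, gave 4831, 5847 and 7027 against 4129, 4195 and 4384 (0.46 ± 0.17, adjusted p = 0.167), with Ko1 the highest. Its second probe set overlapped between the groups (2563, 2197 and 3399 against 2362, 2120 and 2157; 0.27 ± 0.19, adjusted p = 0.444). Cox6c, picked as a further example after the values were seen, gave 0.84 ± 0.18 (adjusted p = 0.0584) and 0.56 ± 0.14 (adjusted p = 0.0759).

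The forms that serve muscle were at the low end of the range. Cox6a2, the heart and muscle form, gave 131, 89.8 and 94.6 on the knockout and 77.1, 159 and 90.9 on the heterozygous arrays (-0.01 ± 0.28, limma adjusted p = 0.992), and Cox7a1, likewise a muscle form, gave 35.7, 22.7 and 26.2 against 29.8, 44.6 and 22.4 (-0.11 ± 0.29, adjusted p = 0.861). Their groups overlapped. Cox8b, the heart form (63.7, 35.1 and 1.01 against 4.27, 8.64 and 13.2), and Cox4i2, the lung form (4.52, 32.9 and 16.2 against 16.3, 18.1 and 1.27), were too dim to be tested. The tested probe set of Cox7c was also dim on all arrays, at 1.77 to 54 (-0.10 ± 0.51), so it says little about this subunit. Cox7b2 and Ndufb4 were the other genes with no tested probe set, and 26 probe sets in all were not tested.

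**Figure D3:**
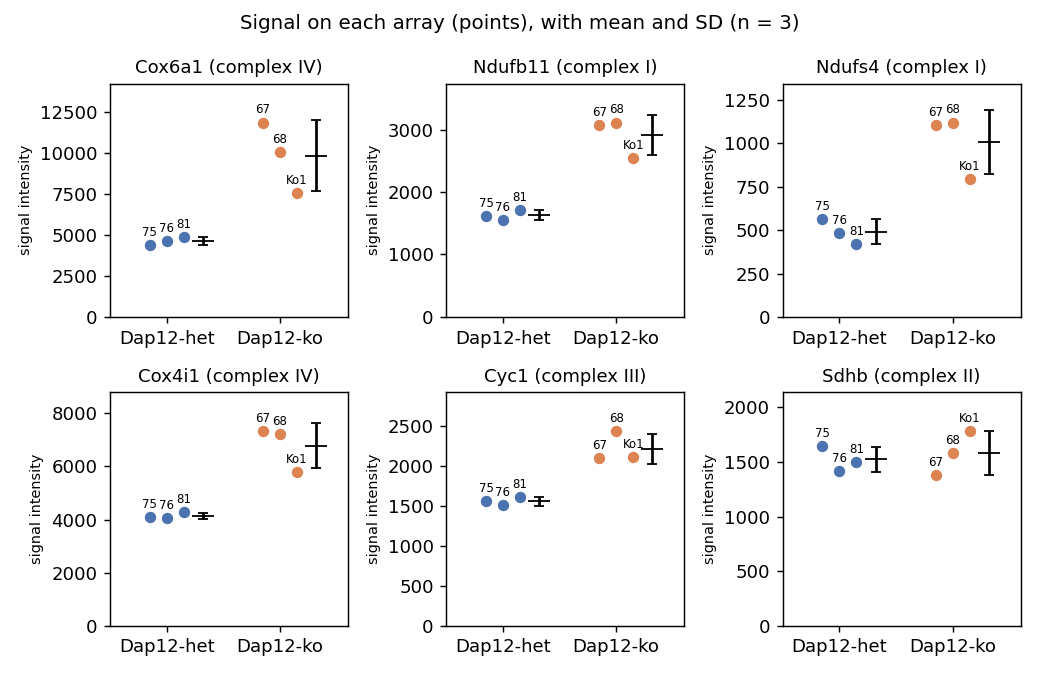
Signal of 6 subunit probe sets on each array (points, named by array), with the mean and SD (n = 3) beside them and axes starting at 0. For Cox6a1, Ndufb11, Ndufs4, Cox4i1 and Cyc1 every knockout array lies above every heterozygous array, with Ko1 the lowest of the knockout arrays for Cox6a1, Ndufb11, Ndufs4 and Cox4i1, whereas for Sdhb the groups overlap.

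The 3 calls depended on the setting. Each was lost with quantile normalization (0 subunit probe sets past the test, beside 0.329% of all higher and 0.231% lower), with arrays centred on their medians (0, beside 0.444% and 2.14%). No alternative turned its sign. Each also missed the threshold when 67, 68, 75, 76 or 81 was left out, but those fits called 0 of all 22518 probe sets (27 higher and 2 lower without 76) and so say little about these genes. The changes there were 0.91 to 1.09 for Cox6a1, 0.78 to 0.86 for Ndufb11 and 0.90 to 1.11 for Ndufs4. Cox6a1 was 0.24 after quantile normalization (limma adjusted p = 0.333) and ranged over the alternatives from an adjusted p of 0.000517 to 0.333; for Ndufb11 the range was 0.00148 to 0.213 and for Ndufs4 0.00257 to 0.199. With arrays centred on their medians the changes were 0.66 for Cox6a1, 0.43 for Ndufb11 and 0.60 for Ndufs4, beside -0.40 for the median of all probe sets.

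Bright probe sets, and the dimmest of those tested, were shifted upward as a class. Among all tested probe sets with a heterozygous mean of at least 4000, the median log2 change was 0.56 (85 probe sets), and from 2000 to 4000 it was 0.14 (385), whereas from 1000 to 2000 it was -0.11 (814). Subunits in the same ranges had medians of 0.43 (6 probe sets), 0.25 (36) and -0.04 (59). Below 50 the median was 0.34 over all probe sets (6135) and 0.01 over the subunits (10). That range held 148 of the 280 higher calls and 0 lower calls. Probe sets this dim on the heterozygous arrays could pass the level filter through their knockout signals. Complex IV holds many bright probe sets, 14 of 26 at or above 2000, and of these 10 (71.4%) had all knockout arrays above all heterozygous arrays, beside 41.9% of all probe sets at that level. After quantile normalization these shares were 14.3% and 13.8%. At 1000 to 2000 complex IV had only 5 probe sets, and they differed. Cox8a gave 0.79 and 0.91 and Cox6c 0.84, whereas Cox5a gave -0.07 and Cox7a2l -0.11. The part of the unequal upper range of the arrays in the values of complexes IV and V was not tested beyond these comparisons.

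**Figure D4:**
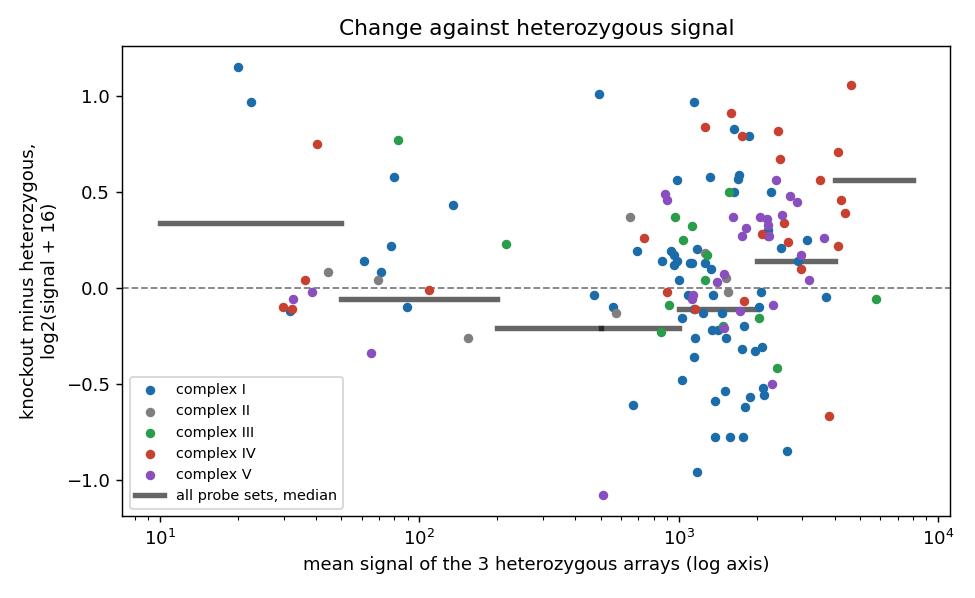
Log2 change (knockout minus heterozygous) of each tested subunit probe set against its mean signal on the 3 heterozygous arrays (log axis), coloured by complex; grey bars are the medians of all probe sets tested in that range of signal. The grey bars go from -0.11 at 1000 to 2000 to 0.56 at 4000 and above, and the complex IV points above 4000 have a median of 0.46.

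In complex V, the ATP synthase, no probe set passed, and 10 of 28 had all knockout arrays above all heterozygous arrays (35.7%, beside 14.9% of all probe sets). At a heterozygous mean of 2000 and above it was 7 of 13 (53.8%, beside 41.9% of all probe sets at that level). From 1000 to 2000 the share was 11.1%, beside 13.6%. After quantile normalization the share at 2000 and above was 7.69%, beside 13.8%. The 10 of 28 became 4 after quantile normalization and 0 with arrays centred on their medians. In the catalytic head, Atp5a1 (subunit alpha) gave 2122, 2282 and 2337 on the knockout and 1807, 1842 and 1787 on the heterozygous arrays (0.31 ± 0.14, limma adjusted p = 0.263) and 0.38 ± 0.18 in a second bright probe set. Atp5b (subunit beta, which holds the catalytic sites) gave 2793, 3075 and 4014 against 3343, 3378 and 2827, with overlap (0.04 ± 0.18, adjusted p = 0.929). Atp5e, subunit epsilon of the central stalk, gave 1198, 1402 and 1151 against 930, 814 and 906 (0.49 ± 0.16, adjusted p = 0.144), with every knockout array above every heterozygous array.

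The proton-conducting c ring is built from 1 mature protein that 3 genes encode. Atp5g1 gave 998, 1237 and 1091 on the knockout and 1217, 1066 and 1129 on the heterozygous arrays (-0.04 ± 0.16, limma adjusted p = 0.915). Atp5g2 gave 1180, 1213 and 1337 against 987, 913 and 799, with no overlap (0.46 ± 0.16, adjusted p = 0.16). Atp5g3, the brightest probe set of the complex, gave 3813, 4020 and 5457 against 3757, 3574 and 3605, also with no overlap and with Ko1 the highest (0.26 ± 0.17, adjusted p = 0.419). The differences among the 3 genes were not tested. The smallest p of the complex was that of Atp5k, subunit e of the dimer interface (3655, 3303 and 3519 against 2314, 2279 and 2507; 0.56 ± 0.14, adjusted p = 0.0804), whose other probe sets gave 0.36 and 0.07. The inhibitor of the enzyme, Atpif1, is no subunit and was not chosen by the rule. Its brightest probe set gave 240, 298 and 1955 against 1244, 1237 and 1181 (-1.19 ± 0.66, adjusted p = 0.338), low on 67 and 68 and high on Ko1. A dim probe set of Atpif1 lay the other way, with no overlap (81.8, 53.9 and 43.1 against 39.6, 23.7 and 31.7; 0.65 ± 0.28, limma adjusted p = 0.236). The direction for Atpif1 is therefore not settled.

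The knockout arrays did not form a uniform group, and in the subunits 67 and 68 stood apart from Ko1. Over the 144 tested subunit probe sets, 67 and 68 correlated with each other at 0.984 (Pearson, log2 values, across probe sets, which are not independent), the heterozygous arrays with each other at 0.985 to 0.989 and Ko1 with the heterozygous arrays at 0.972 to 0.981, whereas 67 and 68 correlated with Ko1 at 0.932 to 0.935 and with the heterozygous arrays at 0.933 to 0.941. Over all probe sets 67 and 68 were not a close pair. They correlated at 0.912, beside 0.91 for 68 with Ko1 and 0.915 and 0.921 for 68 with heterozygous 75 and 76. Measured from the heterozygous mean, the median subunit lay at 0.02, 0.12 and 0.24 on 67, 68 and Ko1. Complex I was at -0.12, 0.06 and 0.18, complex II at -0.15, 0.15 and 0.02, complex III at 0.04, -0.12 and 0.30, complex IV at 0.21, 0.39 and 0.41, and complex V at 0.06, 0.15 and 0.34. Complex IV was the only one of the 5 complexes whose median exceeded 0.2 on each knockout array with the deposited scaling.

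**Figure D5:**
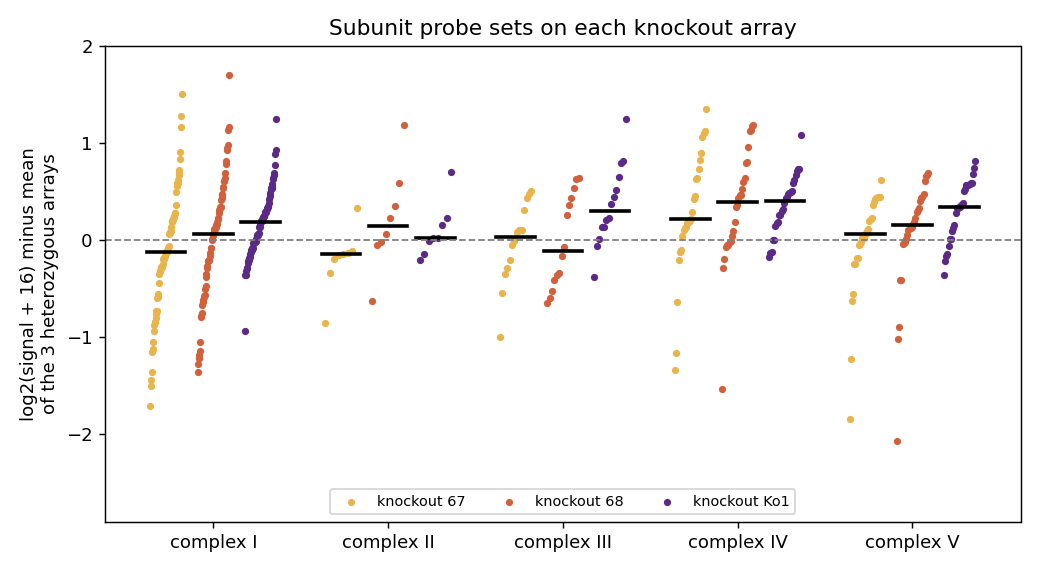
Each tested subunit probe set on each knockout array, as log2(signal + 16) minus the mean of the 3 heterozygous arrays, by complex; points are probe sets sorted by value within an array and bars are medians. The lowest points come from knockout 67 and 68, and the complex I medians are -0.12, 0.06 and 0.18 on 67, 68 and Ko1 with the deposited scaling.

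For 29 subunit probe sets (20.1%, beside 13.1% of all tested), 67 and 68 were both below every heterozygous array and Ko1 was not, and 20 of these were in complex I. Examples, picked after the values were seen, show the size. Ndufa10, an accessory subunit, gave 624, 556 and 1430 on 67, 68 and Ko1 against 1376, 1428 and 1329 on the heterozygous arrays. Atp5c1, the gamma subunit that turns in the ATP synthase, gave 979, 1126 and 3855 against 2451, 2352 and 2096, and Cox5b probe set 1435613_x_at gave 1695, 1307 and 6078 against 3866, 3685 and 3873. In each of these the mean of the knockout group describes none of its arrays. The opposite pattern, with 67 and 68 above every heterozygous array and Ko1 not, was found for 13 (9.03%, beside 13.7%).

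Leaving out Ko1 changed the counts most. With 67 and 68 alone against the heterozygous arrays, 29 subunit probe sets were higher and 25 lower (20.1% and 17.4%, beside 11.9% and 11.3% of all probe sets, limma adjusted p under 0.05). Complex I had 12 higher and 18 lower of 68, complex IV 10 higher and 1 lower of 26, complex V 5 and 3 of 28, complex III 2 and 3 of 14, and complex II 0 and 0 of 8. With weights for each array in place of leaving Ko1 out, there were 28 higher and 18 lower (19.4% and 12.5%, beside 11% and 10.3%). With Ko1 as the only knockout array, whose spread is then assumed to equal that of the heterozygous arrays, 9 were higher and 0 lower (6.25% higher, beside 1.05% of all higher and 1.7% of all lower). Of these, 5 were in complex IV, 3 in complex V and 1, a probe set of Uqcrb, in complex III (0.52, adjusted p = 0.0428).

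With each gene represented by its brightest probe set, 2 of 79 subunit genes rose, Cox6a1 and Ndufb11, and 0 fell (limma adjusted p under 0.05 over 11467 genes, of which 0.244% were higher and 0.767% lower). The median change was 0.14 over the subunit genes, -0.02 in complex I, 0.01 in complex II, 0.17 in complex III, 0.43 in complex IV and 0.33 in complex V, beside -0.09 over all genes. When the tested probe sets of a gene were averaged instead, 0 subunit genes passed, beside 27 higher and 57 lower of all 11467 genes. By suffix, which marks probe sets that can match several transcripts, the median change of the subunits was -0.04 for _x (26 probe sets, beside 0.10 over all probe sets of that kind), 0.15 for _s (18, beside -0.05), 0.14 for _a (37, beside 0.05) and 0.12 with no suffix (63, beside -0.01).

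The promoters of the genes with a probe set that rose (for Ndufb11 another probe set pointed the other way) are shown with those of Cox8a and Sdhb for comparison, the first a subunit near the threshold and the second one that did not differ. The sequences run from 250 bases before to 50 after the gene start and are those of RefSeq for GRCm38.p6; 67 of the 83 subunit genes had an entry. Capitals mark matches, on either strand, to fixed letters of 3 factors known to act on genes of the respiratory chain: NRF-1 (GCATGCGC), GABP, also called NRF-2 (CCGGAAG), and YY1 (AAGATGGC).
Cox6a1: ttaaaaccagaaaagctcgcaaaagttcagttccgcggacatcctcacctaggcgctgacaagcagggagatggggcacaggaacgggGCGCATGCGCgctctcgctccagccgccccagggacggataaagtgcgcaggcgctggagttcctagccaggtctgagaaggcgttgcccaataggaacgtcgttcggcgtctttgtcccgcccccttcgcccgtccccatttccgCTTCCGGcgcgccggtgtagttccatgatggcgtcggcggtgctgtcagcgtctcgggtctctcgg
Ndufb11: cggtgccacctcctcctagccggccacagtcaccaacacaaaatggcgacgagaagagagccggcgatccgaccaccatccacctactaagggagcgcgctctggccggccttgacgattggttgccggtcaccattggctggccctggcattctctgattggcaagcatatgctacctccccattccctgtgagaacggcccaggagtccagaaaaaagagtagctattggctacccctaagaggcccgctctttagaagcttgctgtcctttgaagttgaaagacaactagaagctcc
Ndufs4: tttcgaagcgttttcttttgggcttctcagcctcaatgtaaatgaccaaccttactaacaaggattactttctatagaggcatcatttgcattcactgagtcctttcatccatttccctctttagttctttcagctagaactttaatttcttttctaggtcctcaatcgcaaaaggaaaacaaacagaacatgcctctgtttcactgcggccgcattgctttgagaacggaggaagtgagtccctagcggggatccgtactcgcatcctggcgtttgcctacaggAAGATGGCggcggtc
Cox8a: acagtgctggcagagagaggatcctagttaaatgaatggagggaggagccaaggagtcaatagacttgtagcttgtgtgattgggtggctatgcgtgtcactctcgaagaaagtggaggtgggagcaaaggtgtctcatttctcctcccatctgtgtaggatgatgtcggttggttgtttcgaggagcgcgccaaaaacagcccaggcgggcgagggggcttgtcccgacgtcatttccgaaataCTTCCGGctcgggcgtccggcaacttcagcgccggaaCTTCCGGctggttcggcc
Sdhb: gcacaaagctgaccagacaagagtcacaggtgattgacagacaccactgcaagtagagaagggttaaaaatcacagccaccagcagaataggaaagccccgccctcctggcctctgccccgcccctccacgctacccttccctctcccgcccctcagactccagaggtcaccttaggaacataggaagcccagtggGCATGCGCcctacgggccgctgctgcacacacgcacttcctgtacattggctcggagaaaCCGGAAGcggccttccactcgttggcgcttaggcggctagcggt
These lie at chr5:115348909-115349208 on the minus strand (Cox6a1), chrX:20617570-20617869 on the minus strand (Ndufb11), chr13:114388045-114388344 on the minus strand (Ndufs4), chr19:7217567-7217866 on the minus strand (Cox8a) and chr4:140961021-140961320 on the plus strand (Sdhb). The Cox6a1 window holds NRF-1 letters on both strands, as 2 overlapping matches, and 1 GABP match; Cox8a holds 2 GABP matches, Sdhb 1 NRF-1 and 1 GABP match, Ndufs4 1 YY1 match and Ndufb11 none of these letters.

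Over all subunit promoters the NRF-1 letters were found in 9 of 67 (13.4%, beside 3.05% of 27025 promoters of the same length), the GABP letters in 17 (25.4%, beside 9.93%) and the YY1 letters in 9 (13.4%, beside 3.19%). The median log2 change of tested subunit genes with and without the letters was 0.05 and 0.10 for NRF-1, 0.13 and 0.04 for GABP and 0.14 and 0.05 for YY1. A match is a string of letters, not a site shown to be bound.

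Other genes of the pathway, taken from fixed lists, had no probe set past the test in either direction. Over all probe sets tested, 1.98% passed and 20.9% had an unadjusted p under 0.05. Counts of 0 in lists of this size therefore say little about these genes. Of 57 tested probe sets of assembly factors, 0 rose and 0 fell (8 at an unadjusted p under 0.05, median -0.05); the smallest p was that of Pet100, which helps to assemble complex IV (417, 274 and 380 on the knockout against 195, 244 and 208 on the heterozygous arrays; 0.67 ± 0.22, limma adjusted p = 0.132). Among electron carriers, 0 of 18 passed (2 unadjusted, median -0.13). Cycs, the cytochrome c that carries electrons from complex III to complex IV, gave 4341, 3755 and 4767 against 2595, 2653 and 2147 in 1 probe set (0.79 ± 0.16, adjusted p = 0.0507), with no overlap, and -0.07, -0.02 and 0.38 in the others.

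Enzymes of the Krebs cycle and pyruvate dehydrogenase, which supply the electrons, had 0 of 38 past the test (5 unadjusted, median 0.11). The shares over all probe sets were 1.98% past the test and 20.9% unadjusted. Mdh2, malate dehydrogenase, gave 4191, 5130 and 3859 against 2520, 2768 and 2267 (0.79 ± 0.17, limma adjusted p = 0.0535), and its other probe set overlapped between the groups (0.21 ± 0.20, adjusted p = 0.578). Dlst, a subunit of the 2-oxoglutarate dehydrogenase complex picked after its values were seen, lay the other way, with 215, 257 and 309 against 504, 492 and 460 (-0.87 ± 0.19, adjusted p = 0.0587). Of 29 probe sets of regulators of mitochondrial genes, 0 passed (7 unadjusted, median -0.05). The smallest p was that of Yy1, in a dim probe set (52.5, 89.1 and 48.5 against 18.2, 24.6 and 12.5; 1.18 ± 0.30, adjusted p = 0.0783), and its other probe sets gave 0.76, -0.05 and -0.37. The factors Nrf1 and Gabpa, whose letters were searched above, had no probe set past the test.

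Markers of cell types moved between the groups as well. Of 23 tested probe sets of markers of oligodendrocytes, the cells that make myelin, 8 were higher and 0 lower. All 8 were in Mbp, Mobp and Mal. Sums given here and below add up, on each array, the highest probe set of each marker gene. For oligodendrocytes the sum was 28843 to 67266 on the knockout and 21143 to 21987 on the heterozygous arrays, and 1 Mbp probe set alone gave 36156 on knockout 67. Mag, another myelin gene, gave 1516, 1747 and 565 on the knockout against 1317, 1204 and 1054 on the heterozygous arrays, with Ko1 the lowest of all. General neuronal markers had 4 of 21 higher and 0 lower (sums of 21794 to 28630 against 20992 to 22985), with all 4 in Map2 and Syt1. Over all probe sets tested, 1.24% were higher and 0.733% lower. The brightest probe sets of Map2 and Syt1 gave 0.06 and 0.27, with overlapping groups. Of the 21, 12 lay above 0. Probe sets of Syp (-1.03), Thy1 (-0.45) and Tubb3 (-0.44) had all knockout arrays below all heterozygous arrays and did not pass. Microglial, astrocyte and endothelial markers had 0 of 13, 0 of 30 and 0 of 9 past the test, with sums of 2511 to 2931 against 1658 to 2148, 15667 to 16850 against 12271 to 15414 and 557 to 777 against 645 to 721.

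Markers of brain regions varied widely between arrays of the same group. Sums over striatal markers were 549 to 6734 on the knockout and 1480 to 5899 on the heterozygous arrays, over thalamic markers 717 to 4840 and 1521 to 4113, over hypothalamic markers 1343 to 4822 and 2400 to 5590, and over midbrain markers 305 to 1070 and 275 to 1206, with 0 probe sets past the test in each list. In 2 examples, picked after the values were seen, Ko1 differed from 67 and 68. Penk of the striatum gave 111, 216 and 2404 on 67, 68 and Ko1 against 873, 531 and 2309 on 75, 76 and 81. Slc6a3 of the midbrain gave 395, 205 and 6.45 against 295, 252 and 12.9. Markers of skeletal and heart muscle were low in both groups (sums of 144 to 450 and 213 to 346). Gh, the pituitary growth hormone gene, gave 75.9, 49.9 and 329 on the knockout and 14.6, 1.06 and 1.89 on the heterozygous arrays in its only tested probe set. The other Gh probe sets were high on Ko1 alone, at 346, 507 and 454. They gave at most 8.99 on 67 and 68 and at most 4.72 on the heterozygous arrays. The part of these markers in the subunit values was not tested.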

How the data were processed

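RNA was prepared with Trizol and RNeasy columns and labelled by the Affymetrix one-cycle method, per the labels' protocols. The deposited value of each probe set is a linear signal intensity, which the authors made with GCOS, per the submitters' processing notes; for its version, summary algorithm and scale factors, the sources used here give nothing. After trimming 2% from either end, the deposited intensities averaged 100 on each array; this scaling was kept.

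Of 45101 probe sets, 64 were controls; by the platform annotation 34945 had 1 gene symbol, 932 several and 9160 none, and genes were named only from those with 1. Intensities were transformed as log2(signal + 16). Non-control probe sets whose mean log2 value lay above the median were tested with limma 3.58.1 in R 4.3.3 (lmFit, eBayes with trend, two-sided, 1 term for group, 3 arrays against 3), adjusted by Benjamini-Hochberg over 22518 probe sets, threshold 0.05. The procedure was tested on simulated data. Errors are SE of log2 changes and SD of signals (n = 3). The number of arrays limits the precision.

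The subunits, the lists and the tests were chosen with earlier results of these data known, so no p is given for a list. The genes named were every subunit past the threshold, the 2 with the smallest p and the brightest in each complex, a fixed set of catalytic and isoform subunits, genes with opposed probe sets, Atpif1, Tyrobp and the smallest p of each pathway list; others are marked as picked after their values were seen. Alternatives were arrays centred on their medians, quantile normalization, 64 added or a floor of 1 in place of 16, no filter on level, removal of the lowest 75%, eBayes without trend or robust, array weights, leaving out each array, Ko1 as the only knockout array, 1 probe set per gene, the mean of a gene's probe sets, and only probe sets without a suffix. Neither group has replicate numbers that pair it with the other. Mitochondrially encoded subunits were not analysed here.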

Additional observations from a re-analysis of the deposited data

How the results depend on the processing

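With 3 arrays a group and unequal upper ranges of signal, the counts of subunits past the test were unstable. The 3 higher subunit probe sets became 0 with quantile normalization, arrays centred on their medians, no filter on level, eBayes without trend and only probe sets without a suffix, 2 with a floor of 1 and with 1 probe set per gene, 5 with the lowest 75% removed, 28 with array weights and 9 with Ko1 as the only knockout array. Over all probe sets the share higher also fell in the 5 settings with 0, in that order from 1.24% to 0.329%, 0.444%, 0.14%, 0.546% and 0.793%. The share of subunits higher was 3.97% with the lowest 75% removed, beside 1.49% of all probe sets. It was 1.39% with a floor of 1, beside 0.897%, 2.53% with 1 probe set per gene, beside 0.244%, and 19.4% with array weights, beside 11%. With 64 added or robust eBayes there were again 3, of which 2 were the same, Cox6a1 and Ndufb11. Leaving out 1 array gave 0 to 29 higher and 0 to 25 lower; the count was 0 in each direction without 67, 68, 75, 76 or 81, where 0 of all 22518 probe sets passed (27 higher and 2 lower without 76), and 29 and 25 without Ko1. The 0 lower became 18 with array weights. When the probe sets of a gene were averaged, the 2 higher genes became 0, beside 27 higher and 57 lower of all 11467 genes.

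Medians moved most with arrays centred on their medians, which took all probe sets to -0.40: all subunits went to -0.30, complex I to -0.43, complex II to -0.36, complex III to -0.30, complex IV to -0.13 and complex V to -0.19. Quantile normalization took complexes IV and V to 0.07 and 0.04, below complex III at 0.12. With Ko1 as the only knockout array the medians were 0.24 for all subunits, 0.17 for complex I and 0.41 for complex IV, and 1 probe set of Uqcrb reversed from -0.06 to 0.52 (limma adjusted p = 0.0428). With only probe sets without a suffix complexes I and V were 0.13 and 0.04, and with 1 probe set per gene complex IV was 0.43. The cause of these differences was not tested. No paired analysis was possible because the groups share no replicate numbers.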
